A study of Mus musculus with 6 samples.

Results

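The 8 genes described here cover how phagocytes and vessel cells of the lung take up, store and export lipid: the secreted lipases Lipg and Lpl, the transporters Abca1, Abcg1 and Abca9, the apolipoprotein Apoe, the oxysterol enzyme Ch25h and the droplet coat protein Plin2. They were matched by symbol among 32285 genes of 6 single-cell libraries and were chosen by their measured levels in earlier results of the same libraries, in particular the opposite differences of Lipg and Lpl between KO LPS and WT LPS monocytes. The study measured lung cells positively selected for CD45 with magnetic beads from NOS1 knockout (KO, NOS1-/-) and wild-type (WT, named C65BL6 in the series' design text) mice, 4 h after an intraperitoneal injection of lipopolysaccharide (LPS, 10 mg/kg) or vehicle. LPS is the outer-membrane lipid of Gram-negative bacteria and NOS1 is the neuronal nitric oxide synthase. The groups were KO LPS (2 libraries), WT LPS (2 libraries), KO vehicle (1 library) and WT vehicle (1 library). All mice received an injection, and both KO groups carry the same NOS1-/- genotype. The age and sex of the mice, and whether both LPS libraries of a genotype came from different animals, are not given in the sources used here, so p-values measure only the spread between libraries, which may be technical. That spread is between LPS libraries of the same genotype, because each vehicle group has 1 library. The p-values for LPS against vehicle, and for its difference between genotypes, therefore hold no spread between vehicle libraries.

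On GRCm38 with GENCODE M21, all 8 are protein-coding genes: Lipg lies on chromosome 18 from 74939322 to 74961263, Lpl on chromosome 8 from 68880491 to 68907448, Abca1 on chromosome 4 from 53030787 to 53159895, Abcg1 on chromosome 17 from 31057675 to 31117988, Ch25h on chromosome 19 from 34473778 to 34475164, Apoe on chromosome 7 from 19696109 to 19699188, Abca9 on chromosome 11 from 110100749 to 110168196, and Plin2 on chromosome 4 from 86648386 to 86670060. Lpl and Abcg1 are on the plus strand and the other members on the minus strand. Promoter windows were at hand for 5 of the 8, and Lpl, Abcg1 and Lipg are named only.

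Macrophages take in lipoprotein lipid and hand cholesterol back to circulating particles, and the balance between these routes shifts when they meet bacterial products. Lipoprotein lipase (Lpl) splits the triglyceride of lipoproteins on the vessel wall, while endothelial lipase (Lipg) acts mainly on the phospholipids of high-density lipoprotein. Abca1 passes cholesterol to lipid-poor apolipoprotein particles and Abcg1 to mature high-density lipoprotein. Both are classical targets of the oxysterol-sensing LXR receptors, as is Apoe, a lipid carrier that macrophages secrete. Ch25h hydroxylates cholesterol to an oxysterol that dampens sterol synthesis and is made by macrophages exposed to LPS or interferon. Abca9 is a transporter of the ABCA family whose substrate is less well defined, and Plin2 coats lipid droplets. In the lung, alveolar macrophages clear surfactant lipid.

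The start regions of Ch25h and Abca1 are shown because Ch25h rose with LPS in 8 cell classes, while Abca1 rose in 3 and fell in 2, beside 28.8% of all gene and class pairs higher and 25.4% lower. Both are RefSeq windows of 300 bases on GRCm38.p6, read 5′ to 3′ on the minus strand, chr19:34475099-34475398 for Ch25h and chr4:53159846-53160145 for Abca1. Each runs from 250 bases before the gene start to 50 after it. Capitals mark exact matches to motifs that were chosen after the sequences were read.
Ch25h: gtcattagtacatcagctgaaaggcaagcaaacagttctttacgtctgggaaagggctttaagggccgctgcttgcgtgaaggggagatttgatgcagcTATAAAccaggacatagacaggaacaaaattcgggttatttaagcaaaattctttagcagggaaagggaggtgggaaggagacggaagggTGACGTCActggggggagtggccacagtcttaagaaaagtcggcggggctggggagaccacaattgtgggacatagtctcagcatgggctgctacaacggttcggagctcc
Abca1: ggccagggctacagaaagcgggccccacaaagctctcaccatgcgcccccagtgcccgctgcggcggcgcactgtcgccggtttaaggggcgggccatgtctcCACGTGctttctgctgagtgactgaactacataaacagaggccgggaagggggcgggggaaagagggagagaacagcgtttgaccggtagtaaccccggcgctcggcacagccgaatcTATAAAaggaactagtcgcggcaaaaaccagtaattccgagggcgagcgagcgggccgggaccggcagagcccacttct
Ch25h holds TGACGTCA, the full cyclic AMP response element, at position 190 of the window and TATAAA at position 100. Abca1 holds the E-box CACGTG at position 104 and TATAAA at position 222. Among 32817 promoter windows of the same length, searched on both strands, TGACGTCA occurs in 1.79%, CACGTG in 7.15% and TATAAA in 13.6%. The windows of Plin2, Apoe and Abca9 were also searched: Plin2 has CACGTG, 1 of 3 Apoe windows has TATAAA, and Abca9 has none of the motifs. The spaced direct repeat that LXR dimers can bind (0.0152% of windows) and an interferon response motif (3.43%) were also searched by a fixed pattern. Neither fixed pattern is in the windows of these 5 genes. Variants of these patterns were not searched for, so whether the windows, that of Abca1 included, hold other LXR or interferon sites was not tested.

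The libraries held 55361477 to 115225284 UMIs (unique molecular identifiers, 1 per captured transcript) in 64428 barcodes, and 48366 cells remained in named classes after quality, doublet and marker filters. Between 19 and 34 barcodes were shared by any pair of libraries, 411 barcodes in all. Classes were named from marker genes, so "neutrophil", "classical monocyte" and the like stand for neutrophil-like and classical monocyte-like cells. Endothelial and stromal classes with their own markers were present in all 6 libraries although CD45 was the selected antigen. Nos1 gave 4 and 4 UMIs in the KO LPS libraries, 0 and 1 in WT LPS, 5 in KO vehicle and 2 in WT vehicle, too few to check the genotype labels. The libraries stood apart by sex-linked transcripts. In the KO LPS libraries 30.9% and 31.7% of cells carried Xist only and 23.1% and 20.3% carried Y-linked transcripts only. The WT LPS libraries had 49.0% and 46.1% Xist-only cells and 0.0478% and 0.0109% Y-only cells, the KO vehicle library 75.9% and 0.0148%, and the WT vehicle library 0.0119% and 44.1%. The KO LPS libraries therefore hold Xist-marked and Y-marked cells, and the vehicle libraries have opposite marks. For this reason the called differences between KO LPS and WT LPS are given with all cells and with Xist-marked cells alone. Whether the Y-marked cells of the KO LPS libraries had the same exposure to LPS as the Xist-marked ones was not tested. Every KO LPS level and KO LPS against WT LPS difference with all cells includes them. LPS changes averaged over genotypes include them as well, as does the interaction of genotype with LPS. In CPM without TMM, Y-marked KO LPS neutrophils held 777 and 847 CPM of Lipg and Xist-marked ones 761 and 840 CPM, against 0 UMIs in both vehicle libraries, whereas Y-marked KO LPS alveolar macrophages lay mostly in a cluster of vehicle cells, as described with Ch25h. In the comparison of LPS with vehicle within WT, and in the interaction of genotype with LPS, sex mark and treatment cannot be told apart.

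Levels below are CPM, the share of a gene in all UMIs of a class in a library on the usual CPM scale, adjusted with TMM within the class. A sum over a class does not separate fewer cells that express a gene from less RNA per cell. Fold changes are on the log2 scale ± standard error from edgeR, LPS over vehicle or KO over WT, and adjusted p is Benjamini-Hochberg over all genes of a class. In classical monocytes the KO LPS against WT LPS contrast chose the genes, so it is described there without a test.

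Lipg was close to absent from vehicle lungs outside endothelial and stromal cells and rose with LPS in all 9 classes. Outside neutrophils, neutrophil markers rose with LPS in every class as well, and their part in the Lipg rise was not tested. In neutrophils Lipg reached 944 and 983 CPM in KO LPS and 1757 and 1665 CPM in WT LPS, with 0 UMIs in KO vehicle and WT vehicle. In classical monocytes it was 52.1 and 56.8 CPM in KO LPS and 226 and 204 CPM in WT LPS, again with 0 in both vehicle libraries. Every LPS library was above every vehicle library, and the WT LPS libraries were the highest in both classes. Over all LPS libraries Lipg was at least 1477-fold higher than vehicle in neutrophils and at least 134-fold higher in classical monocytes, with 3 counts over both vehicle libraries as the floor. Interstitial macrophages, the Apoe- and complement-rich macrophages of the lung wall, had 150 and 122 CPM in KO LPS, 339 and 342 CPM in WT LPS, 0.333 CPM in KO vehicle and 0 in WT vehicle. That ratio rests on 1 vehicle UMI and was 1440 (95% counting interval 258 to 56927).

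Endothelial and stromal cells made Lipg without LPS as well. Endothelial cells had 84.1 and 78.2 CPM in KO LPS, 142 and 134 CPM in WT LPS, 40.8 CPM in KO vehicle and 49.8 CPM in WT vehicle, a rise with LPS of 1.23 ± 0.11 (adjusted p = 2.2e-08). Stromal cells had 263 and 309 CPM in KO LPS, 424 and 410 CPM in WT LPS, 61.5 CPM in KO vehicle and 51.4 CPM in WT vehicle, a rise of 2.61 ± 0.17 (adjusted p = 3.9e-06). In both classes the LPS libraries lay above the vehicle libraries without overlap. Endothelial markers in the stromal class summed to 1860 to 2633 CPM with LPS and 105 to 200 CPM with vehicle. The part of endothelial RNA in the LPS changes of stromal cells, here and for the other genes, was not tested. In WT LPS the order of Lipg levels was neutrophil (1711 ± 64.8 CPM, SD, n = 2), stromal cell, interstitial macrophage, classical monocyte, endothelial cell and T cell, each separate from the next. The libraries of B cells, NK cells and alveolar macrophages overlapped their neighbours, at 6.2 to 12.2 CPM.

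**Figure D1:**
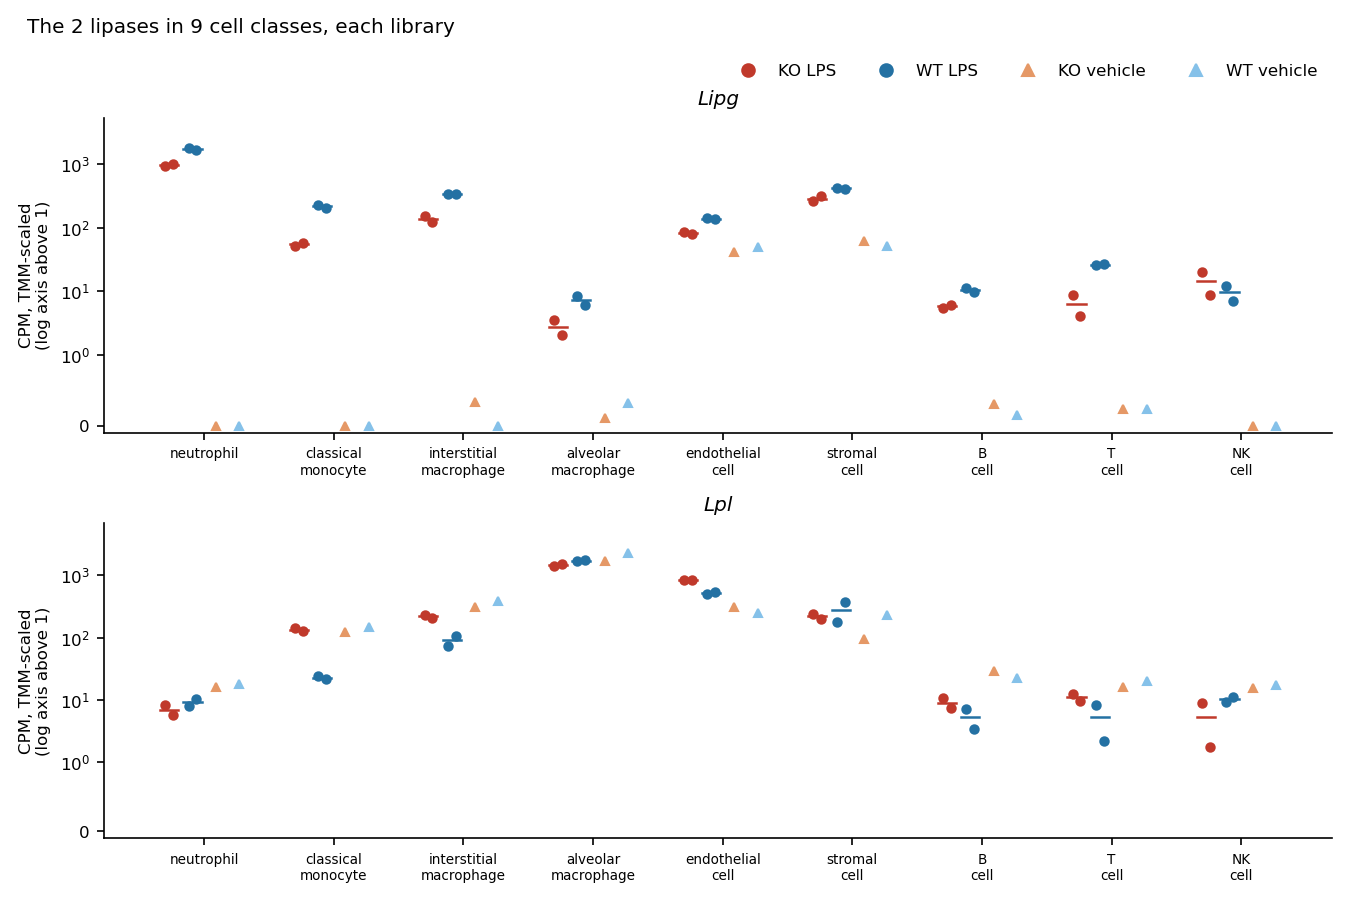
Lipg (top) and Lpl (bottom) in 9 cell classes; each point is 1 library, the y axis is TMM-scaled CPM (log axis above 1, linear below), and short lines are means of 2 LPS libraries. Lipg stands at 0 in vehicle neutrophils and classical monocytes and at 1665 to 1757 CPM in WT LPS neutrophils, while Lpl in classical monocytes is at 21.4 and 23.9 CPM in WT LPS and at 125 to 146 CPM in the other libraries.

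KO LPS cells held less Lipg than WT LPS cells. In classical monocytes, where the contrast chose the gene, the log2 difference was −1.99 with all cells, so KO LPS levels were 0.252 of WT LPS levels. Outside monocytes the test could be made, and Lipg fell in 5 of 8 classes, beside 9.94% of all gene and class pairs lower: neutrophils (−0.83 ± 0.04, adjusted p = 1.9e-09), interstitial macrophages (−1.31 ± 0.14, adjusted p = 3e-06), alveolar macrophages (−1.35 ± 0.25, adjusted p = 0.00018), endothelial cells (−0.76 ± 0.11, adjusted p = 7.6e-05) and T cells (−1.93 ± 0.39, adjusted p = 0.0012). Neutrophil markers were lower in KO LPS in these classes too, with the values given after the shares of cells. B cells gave −0.86 ± 0.35 (adjusted p = 0.069), stromal cells −0.55 ± 0.14 (adjusted p = 0.097) and NK cells 0.67 ± 0.60 (adjusted p = 0.63). With Xist-marked cells alone the fall passed the test in neutrophils (−0.67 ± 0.06, adjusted p = 2.7e-07), interstitial macrophages (−1.43 ± 0.22, adjusted p = 0.0038) and alveolar macrophages (−1.51 ± 0.29, adjusted p = 0.0022), and no longer in endothelial cells (−0.38 ± 0.12, adjusted p = 0.12) or T cells (−1.59 ± 0.46, adjusted p = 0.10).

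In single cells the same order was seen at equal depth. Cells with at least 3000 UMIs were thinned to 3000 UMIs, and shares after thinning are over those cells only. Lipg was then detected in 11.5% and 12.3% of KO LPS classical monocytes and in 36.2% and 33.9% of WT LPS classical monocytes. Without thinning the shares were 23.4% and 21.9% in KO LPS and 60.7% and 53.3% in WT LPS. No vehicle monocyte had a Lipg UMI after thinning, with upper 95% Wilson limits of 1.86% in KO vehicle and 1.83% in WT vehicle. Among neutrophils the thinned shares were 80.0% and 83.7% in KO LPS and 90.3% and 89.9% in WT LPS. In T cells, which are not known as a source of Lipg, they were 1.65% and 0.400% in KO LPS and 5.32% and 6.09% in WT LPS. Median depth before thinning was 10262, 7491, 11155, 8235, 6560 and 4749 UMIs in monocytes and 4612.5, 3206, 4981, 3725.5, 3767 and 2882 UMIs in T cells, in the order KO LPS, WT LPS, KO vehicle and WT vehicle.

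Neutrophil transcripts moved with Lipg in several classes. The summed level of 9 neutrophil markers was lower in both KO LPS libraries than in both WT LPS libraries in neutrophils, classical monocytes, alveolar and interstitial macrophages, T cells and endothelial cells. It overlapped in B and NK cells. In stromal cells it ran the other way, with 7037 and 5571 CPM in KO LPS and 3264 and 5205 CPM in WT LPS, while the Lipg values there were lower in KO LPS. In classical monocytes the markers summed to 2884 and 3185 CPM in KO LPS, 7714 and 6414 CPM in WT LPS, 295 CPM in KO vehicle and 361 CPM in WT vehicle. Per 1000 neutrophil-marker UMIs, neutrophils themselves held 4.00 and 4.41 Lipg UMIs in KO LPS and 5.91 and 5.75 in WT LPS. Classical monocytes held 18.1 and 17.8 in KO LPS and 29.3 and 31.8 in WT LPS, so their Lipg exceeded the neutrophil ratio in all 4 libraries. Alveolar macrophages held 4.44 and 3.92 in KO LPS and 6.98 and 5.02 in WT LPS, close to neutrophils, and the part of neutrophil RNA in their Lipg was not tested. Interstitial macrophages were between, with 7.41 and 8.57 in KO LPS and 9.98 and 11.1 in WT LPS, and carried 20259 and 14235 CPM of neutrophil markers in KO LPS and 33993 and 30855 CPM in WT LPS, against 272 CPM in KO vehicle and 837 CPM in WT vehicle. Endothelial cells carried 4561 and 4468 CPM of neutrophil markers in KO LPS and 13120 and 6465 CPM in WT LPS, with 18.4 and 17.5 Lipg UMIs per 1000 marker UMIs in KO LPS and 10.8 and 20.8 in WT LPS. T cells carried 873 and 866 CPM in KO LPS and 1837 and 1208 CPM in WT LPS, with 9.89 and 4.76 Lipg UMIs per 1000 in KO LPS and 14.3 and 21.8 in WT LPS. The part of neutrophil RNA in the lower Lipg of both classes was not tested. Stromal cells held 37.3 and 55.5 Lipg UMIs per 1000 neutrophil-marker UMIs in KO LPS and 130 and 78.7 in WT LPS.

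Lpl showed the reverse pattern in classical monocytes. Its level was 142 and 128 CPM in KO LPS and 23.9 and 21.4 CPM in WT LPS, against 125 CPM in KO vehicle and 146 CPM in WT vehicle. The WT LPS libraries were thus the low ones, and the KO LPS libraries lay in the range of the vehicle libraries. The log2 difference between KO LPS and WT LPS was 2.58, 5.97-fold. Averaged over genotypes, the LPS change was −1.28 ± 0.09. This average combines a fall in WT with KO LPS levels in the vehicle range. No test is given for it, because these levels took part in choosing the gene. At 3000 UMIs per cell, Lpl was found in 18.9% and 16.3% of KO LPS monocytes, 3.88% and 3.03% of WT LPS monocytes, 22.2% of KO vehicle and 25.7% of WT vehicle monocytes. Some monocytes held UMIs of both lipases. In KO LPS, 14.5% and 12.1% of Lipg-positive monocytes also had Lpl, against 19.4% and 16.8% of the other monocytes, and in WT LPS 2.81% and 1.84% did, against 4.49% and 3.64%.

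Interstitial macrophages also had less Lipg and more Lpl in KO LPS than in WT LPS. They held 231 and 209 CPM of Lpl in KO LPS and 74.8 and 107 CPM in WT LPS, against 312 CPM in KO vehicle and 386 CPM in WT vehicle. Lpl was higher in KO LPS than WT LPS by 1.28 ± 0.16 (adjusted p = 1.9e-05), and 1.06 ± 0.20 with Xist-marked cells alone (adjusted p = 0.017), while the LPS change over both genotypes was −1.30 ± 0.12 (adjusted p = 1.2e-08). Alveolar macrophage markers in this class summed to 1310 and 1269 CPM in KO LPS, 563 and 573 CPM in WT LPS, 2092 CPM in KO vehicle and 1564 CPM in WT vehicle. Their part in the Lpl difference was not tested. In classical monocytes the same 8 markers gave 1417 and 1533 CPM in KO LPS and 852 and 914 CPM in WT LPS, against 992 CPM in KO vehicle and 1508 CPM in WT vehicle. In interstitial macrophages 23 of 98 and 14 of 74 KO LPS cells carried both Xist and Y-linked transcripts, against 3.05% and 2.84% over the named classes. Before doublet removal, 98 KO and 129 WT vehicle cells of this class lay in a cluster without LPS cells. Its LPS cells lay in another cluster, with 16.6% predicted doublets. The part of mixed cells and clusters in changes of the 8 genes there was not tested.

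Alveolar macrophages had the highest Lpl of the 9 classes, with 1412 and 1536 CPM in KO LPS, 1715 and 1754 CPM in WT LPS, 1723 CPM in KO vehicle and 2277 CPM in WT vehicle. LPS lowered it by a small margin, −0.31 ± 0.05 (adjusted p = 1.1e-05). The KO LPS against WT LPS difference of −0.23 ± 0.06 (adjusted p = 0.0027) was −0.02 ± 0.05 in Xist-marked cells (adjusted p = 0.81), and −0.17 without the first KO LPS library, where it no longer passed. In endothelial cells Lpl was 836 and 834 CPM in KO LPS and 502 and 541 CPM in WT LPS, against 310 CPM in KO vehicle and 253 CPM in WT vehicle, and it rose with LPS by 1.24 ± 0.08 (adjusted p = 2.8e-10). KO LPS endothelial cells were higher than WT LPS with all cells (0.68 ± 0.08, adjusted p = 1.9e-05) and not with Xist-marked cells, where the estimate turned to −0.44 ± 0.11 (adjusted p = 0.053). An endothelial cluster of 156 and 103 KO LPS cells, in which 100% and 98.3% of the marked cells were Y-marked, held no WT LPS cell, and its Lpl was 1535 and 1447 CPM without TMM. In the cluster with 396 and 243 KO LPS and 292 and 375 WT LPS cells, Lpl was 323 and 340 CPM in KO LPS and 414 and 439 CPM in WT LPS, so the class as a whole and the shared cluster differed in direction. Lpl also fell with LPS in neutrophils, B cells, T cells and NK cells, where no library exceeded 28.7 CPM, and in stromal cells the change was 0.74 ± 0.28 (adjusted p = 0.069). The NK cell fall was lost without the second KO LPS library (−0.77) or without the first WT LPS library (−0.96).

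The opposite movement of Lipg and Lpl in monocytes differed in size with the sex marks of the cells. In CPM without TMM scaling, Y-marked KO LPS monocytes had 23.5 and 30.6 CPM of Lipg and Xist-marked KO LPS monocytes 101 and 89.9 CPM, against 183 and 178 CPM in Xist-marked WT LPS monocytes. Lpl was 196 and 175 CPM in Y-marked and 40.9 and 49.1 CPM in Xist-marked KO LPS monocytes, against 25.5 and 21.7 CPM in Xist-marked WT LPS monocytes. Within the KO LPS libraries, Y-marked monocytes therefore had 0.283 of the Lipg and 4.13-fold the Lpl of Xist-marked ones. Both marks kept the direction against WT LPS, and with Xist-marked cells alone the log2 difference shrank to −0.88 for Lipg and 0.93 for Lpl. Y-marked cells made up 61.5% and 55.3% of the marked KO LPS monocytes. WT LPS had no Y-marked monocytes, so genotype and mark cannot be compared within Y-marked cells.

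**Figure D2:**
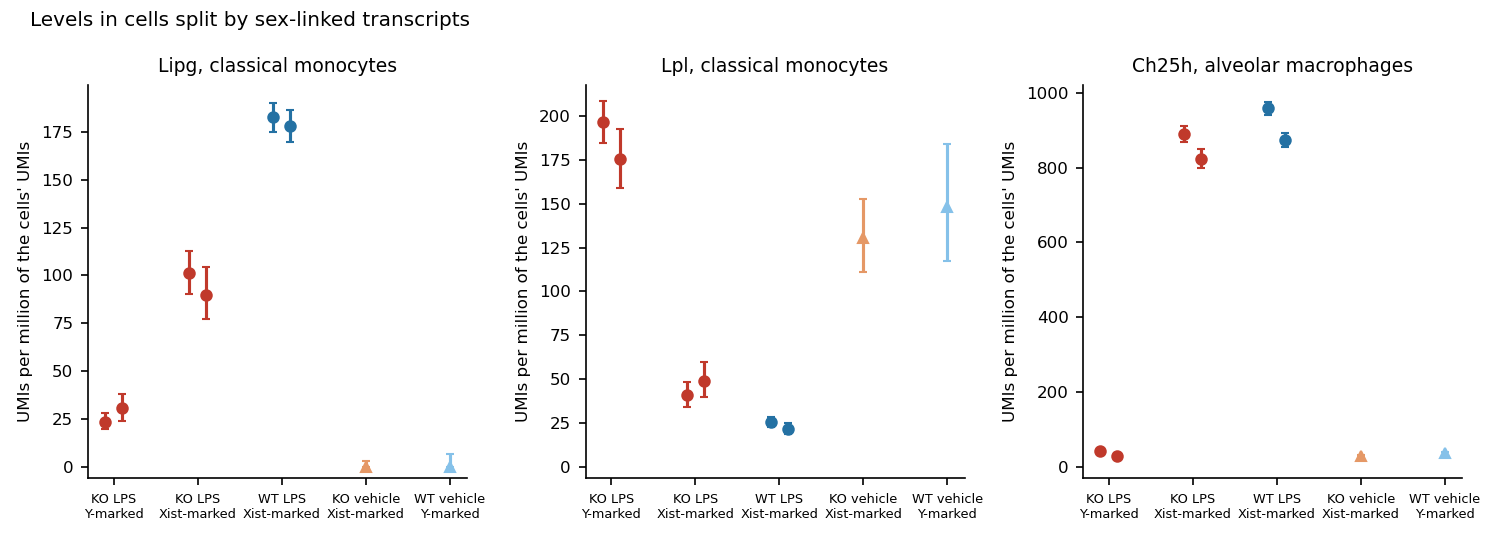
Levels in cells that carry only Y-linked transcripts or only Xist, as CPM over those cells; points are libraries and bars are exact 95% Poisson intervals for counting error. Ch25h in alveolar macrophages is at 43.6 and 29.0 CPM in Y-marked KO LPS cells, at 889 and 824 CPM in Xist-marked KO LPS cells and at 958 and 874 CPM in Xist-marked WT LPS cells.

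LPS monocytes of the 2 genotypes also lay mostly in different clusters, which were built without the 8 genes, and levels within clusters are CPM without TMM. One cluster held 583 of 991 and 408 of 755 KO LPS monocytes but 48 of 1115 and 68 of 1167 WT LPS monocytes, and 94.6% and 94.7% of its marked KO LPS cells were Y-marked. Lipg there was 22.0 and 18.8 CPM in KO LPS and 57.3 and 147 CPM in WT LPS, and Lpl was 190 and 173 CPM in KO LPS and 19.8 and 32.0 CPM in WT LPS. A cluster that held most WT LPS monocytes, 889 and 911 cells, had 312 and 270 KO LPS cells, of which 5.61% and 5.79% of the marked ones were Y-marked. Lipg in it was 121 and 123 CPM in KO LPS and 259 and 221 CPM in WT LPS, and Lpl was 24.1 and 19.9 CPM in KO LPS and 12.1 and 8.19 CPM in WT LPS. In each of these clusters the KO LPS libraries were below the WT LPS libraries for Lipg and above them for Lpl. The remaining LPS cluster, of 96 and 77 KO LPS and 178 and 188 WT LPS cells, had 53.5 and 61.1 CPM of Lipg in KO LPS against 150 and 128 CPM in WT LPS, and 144 and 146 CPM of Lpl in KO LPS against 37.1 and 32.6 CPM in WT LPS.

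Genes whose levels ran most like Lipg over 54 library and class sums were Schip1 (Pearson r = 0.94), Fmnl2 (0.90) and Snai1 (0.90), out of 6872 genes compared on the log2(CPM + 1) scale. For Lpl they were Lima1 (0.95), Hsd3b7 (0.95) and Mertk (0.94). The sums share libraries and depth, so these are descriptions.

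Across the 8 genes the LPS response was broad, as in the whole transcriptome. Of 72 gene and class pairs 67 passed the low-count filter, of which 32 were higher and 27 lower with LPS at an adjusted p under 0.05 (edgeR). Lipg and Lpl in classical monocytes are among them, although their LPS levels took part in choosing the genes. Over all 98238 gene and class pairs tested, 28.8% were higher, 25.4% lower and 54.2% changed in either direction. Scaling matters here: with plain library totals the median gene shifted by −1.40 in neutrophils, −0.66 in endothelial cells, −0.53 in interstitial macrophages, −0.44 in stromal cells, −0.29 in NK cells, −0.26 in classical monocytes, −0.24 in T cells, −0.15 in alveolar macrophages and −0.12 in B cells relative to TMM. The changes given are relative to the TMM-scaled median gene.

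**Figure D3:**
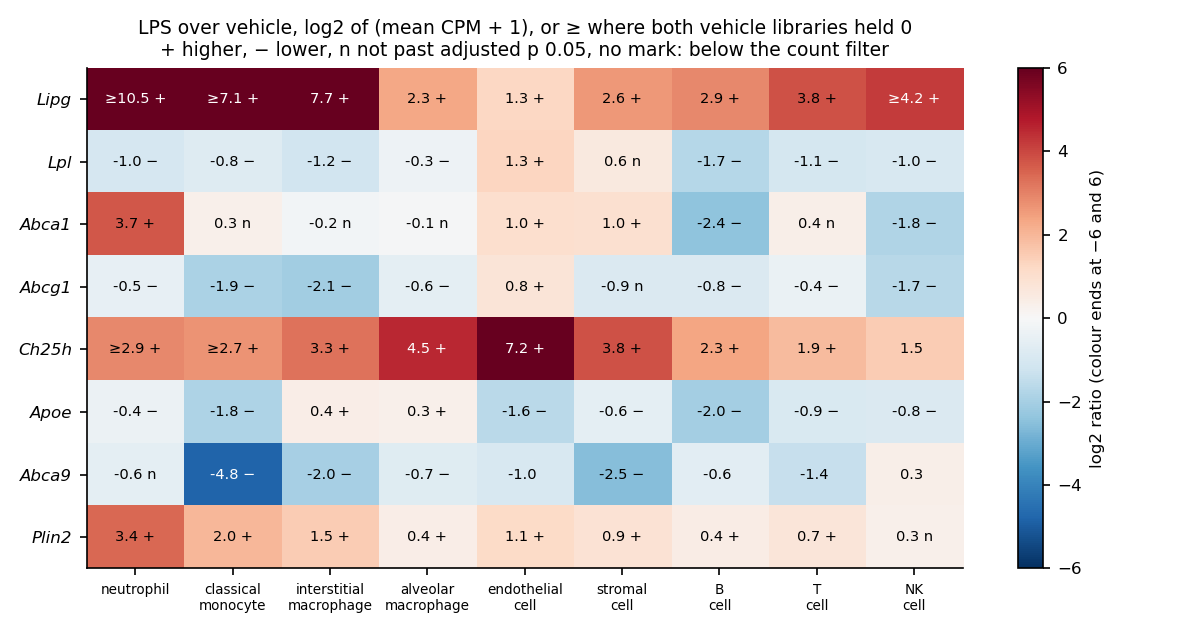
LPS over vehicle for the 8 genes (rows) in 9 classes (columns), as the log2 ratio of (mean CPM + 1), with a lower bound where both vehicle libraries held 0 UMIs. Lipg and Ch25h are higher with LPS in every class where they passed the filter, Abca9 is lower in the 5 classes where it did, of which 4 passed the test, and Abca1 and Apoe differ in direction between classes. A gene can pass the filter through the treatment where it is high. Where the other treatment held few or no UMIs, passing and direction are therefore not independent.

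Among the exporters, Abca1 differed in direction between classes. In neutrophils it was 140 and 130 CPM in KO LPS, 189 and 178 CPM in WT LPS, 15.5 CPM in KO vehicle and 6.43 CPM in WT vehicle, a rise of 3.98 ± 0.13, or 15.8-fold (adjusted p = 3e-12). It rose in endothelial cells by 1.02 ± 0.18 (adjusted p = 9.7e-05) and in stromal cells by 0.99 ± 0.21 (adjusted p = 0.0063). It fell in B cells (−2.69 ± 0.17, adjusted p = 2.9e-11), which had 24.1 and 17.3 CPM in KO LPS and 8.92 and 2.69 CPM in WT LPS, against 70.3 CPM in KO vehicle and 78.2 CPM in WT vehicle, and in NK cells (−2.17 ± 0.37, adjusted p = 1.3e-05). In the mononuclear phagocytes no LPS change passed. Alveolar macrophages had 99.3 and 101 CPM in KO LPS and 127 and 133 CPM in WT LPS, against 92.6 CPM in KO vehicle and 147 CPM in WT vehicle (−0.03 ± 0.05, adjusted p = 0.61). Interstitial macrophages (−0.20 ± 0.12, adjusted p = 0.17) and classical monocytes (0.24 ± 0.33, adjusted p = 0.55) overlapped between treatments.

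Abcg1 fell with LPS in 7 classes, averaged over genotypes. Alveolar macrophages, where it was highest, had 967 and 941 CPM in KO LPS and 932 and 935 CPM in WT LPS, against 1297 CPM in KO vehicle and 1517 CPM in WT vehicle (−0.57 ± 0.05, adjusted p = 3.2e-10). Interstitial macrophages had 87.4 and 57.4 CPM in KO LPS and 43.1 and 39.2 CPM in WT LPS, against 226 CPM in KO vehicle and 258 CPM in WT vehicle (−2.12 ± 0.13, adjusted p = 2.2e-11). Alveolar macrophage markers in this class, given with Lpl, were also highest in vehicle and lowest in WT LPS. B cell markers there summed to 119 to 384 CPM with LPS and 1447 to 1910 CPM with vehicle. The part of either in the Abcg1 change was not tested. In classical monocytes Abcg1 was 9.84 and 10.9 CPM in KO LPS and 11.9 and 14.3 CPM in WT LPS, against 51.8 CPM in KO vehicle and 40.1 CPM in WT vehicle (−1.98 ± 0.17, adjusted p = 3.4e-09). In these phagocytes every LPS library was below every vehicle library. The change was −0.56 ± 0.09 in neutrophils, −1.72 ± 0.25 in NK cells, −0.95 ± 0.12 in B cells and −0.44 ± 0.12 in T cells, all past the test. In T cells mean KO LPS (56.7 CPM) was above KO vehicle (52.4 CPM), while mean WT LPS (30.9 CPM) was below WT vehicle (62.0 CPM). In neutrophils mean KO LPS (32.6 CPM) was below KO vehicle (64.8 CPM), and mean WT LPS (60.8 CPM) was nearer to WT vehicle (66.9 CPM). Endothelial cells rose by 0.78 ± 0.18 (adjusted p = 0.0011), with 56.4 and 53.3 CPM in KO LPS, 86.5 and 48.9 CPM in WT LPS, 34.9 CPM in KO vehicle and 36.2 CPM in WT vehicle, but the estimate was −0.18 when predicted doublets were kept. Averaged over genotypes, Abca1 and Abcg1, both LXR targets, thus moved in different directions in neutrophils, which holds under TMM and plain totals.

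Abca9 was nearly lost from classical monocytes after LPS. It was 2.00 and 1.75 CPM in KO LPS and 1.29 and 0.964 CPM in WT LPS, against 69.7 CPM in KO vehicle and 69.7 CPM in WT vehicle (−5.54 ± 0.20, adjusted p = 2.9e-15). Interstitial macrophages had 11.5 and 18.8 CPM in KO LPS and 13.2 and 8.86 CPM in WT LPS, against 57.3 CPM in KO vehicle and 51.9 CPM in WT vehicle (−2.11 ± 0.21, adjusted p = 3.7e-08). Stromal cells (−2.90 ± 0.61, adjusted p = 0.0061) and alveolar macrophages (−2.41 ± 0.53, adjusted p = 0.00049, at most 1.18 CPM) also fell. It passed the filter in neutrophils without a call and did not pass it in B, T, NK and endothelial cells. A list of Abca9 relatives (Abca2, Abca3, Abca5, Abca6, Abca7, Abca8a, Abca8b) was made with earlier results known. In monocytes 4 of them passed the filter and those 4 fell, beside a background of 25.5% of genes lower in that class. A relative that is near absent with LPS passes the filter only through its vehicle libraries, so its fall adds no support. Among them Abca3 was 8.34 and 9.17 CPM in KO LPS and 4.89 and 4.38 CPM in WT LPS, against 49.2 CPM in KO vehicle and 41.8 CPM in WT vehicle, and Abca6 had at most 0.250 CPM with LPS against 15.3 CPM in KO vehicle and 16.6 CPM in WT vehicle.

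Apoe was concentrated in interstitial macrophages, with 6718 and 5164 CPM in KO LPS, 7719 and 7079 CPM in WT LPS, 5108 CPM in KO vehicle and 4865 CPM in WT vehicle. The LPS change there was 0.41 ± 0.09 (adjusted p = 0.00039) and turned to −0.12 with plain library totals. Classical monocytes lost Apoe with LPS: 442 and 531 CPM in KO LPS and 319 and 393 CPM in WT LPS, against 1507 CPM in KO vehicle and 1526 CPM in WT vehicle (−1.87 ± 0.07, adjusted p = 8.9e-15). It fell too in endothelial cells (−1.63 ± 0.12, adjusted p = 4.6e-09), stromal cells (−0.58 ± 0.08, adjusted p = 0.00065) and B cells (−2.13 ± 0.09, adjusted p = 1.3e-13). In T cells the change averaged over genotypes was −0.75 ± 0.13 (adjusted p = 6.7e-06). The LPS libraries of T cells, at 35.1 to 54.1 CPM, overlapped WT vehicle (47.0 CPM) and lay below KO vehicle only (122 CPM). Neutrophils (−0.37 ± 0.14, adjusted p = 0.039), NK cells (−0.96 ± 0.32, adjusted p = 0.015) and alveolar macrophages (0.33 ± 0.08, adjusted p = 0.0015) passed with smaller margins. The NK cell fall was lost without the second WT LPS library (−0.68).

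Ch25h, the oxysterol enzyme, rose steeply in alveolar macrophages, where it was also highest among the classes with LPS. They had 454 and 475 CPM in KO LPS and 1024 and 936 CPM in WT LPS, against 26.6 CPM in KO vehicle and 35.0 CPM in WT vehicle, a rise of 4.47 ± 0.07, or 22.1-fold (adjusted p = 5.4e-23). This rise is averaged over genotypes and includes the Y-marked KO LPS cells, whose Ch25h is given below. Interstitial macrophages had 163 and 148 CPM in KO LPS and 116 and 76.6 CPM in WT LPS, against 11.3 CPM in KO vehicle and 13.2 CPM in WT vehicle (3.32 ± 0.19, adjusted p = 7.6e-12). KO LPS libraries were the lower LPS libraries in alveolar and the higher ones in interstitial macrophages. Endothelial cells had 164 and 197 CPM in KO LPS and 281 and 228 CPM in WT LPS, against 3 UMIs over both vehicle libraries, a ratio of 363 (95% counting interval 124 to 1761). Neutrophils and classical monocytes held no vehicle UMI and at most 10.2 CPM with LPS, at least 7.48-fold and at least 6.51-fold higher. Stromal cells had 71.9 and 74.9 CPM in KO LPS and 97.6 and 152 CPM in WT LPS, against 0 in KO vehicle and 12.2 CPM in WT vehicle, and passed the test (adjusted p = 6.9e-05). The endothelial part of that rise was not tested. T and B cells passed at 9.87 CPM or less, and NK cells were below the filter.

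Plin2 rose with LPS in 8 classes. Classical monocytes had 636 and 635 CPM in KO LPS and 615 and 640 CPM in WT LPS, against 137 CPM in KO vehicle and 177 CPM in WT vehicle (2.02 ± 0.06, adjusted p = 4.6e-16). Neutrophils had 421 and 442 CPM in KO LPS and 670 and 673 CPM in WT LPS, against 45.8 CPM in KO vehicle and 54.0 CPM in WT vehicle (3.44 ± 0.07, 10.8-fold, adjusted p = 7.9e-15). In alveolar macrophages, where its level was highest, the rise was smaller: 1048 and 1037 CPM in KO LPS and 1160 and 1120 CPM in WT LPS, against 791 CPM in KO vehicle and 851 CPM in WT vehicle (0.41 ± 0.05, adjusted p = 1.3e-07). Interstitial macrophages rose by 1.54 ± 0.11, endothelial cells by 1.16 ± 0.12, stromal cells by 0.94 ± 0.23, T cells by 0.80 ± 0.17 and B cells by 0.44 ± 0.15. NK cells gave 0.31 ± 0.26 (adjusted p = 0.34).

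**Figure D4:**
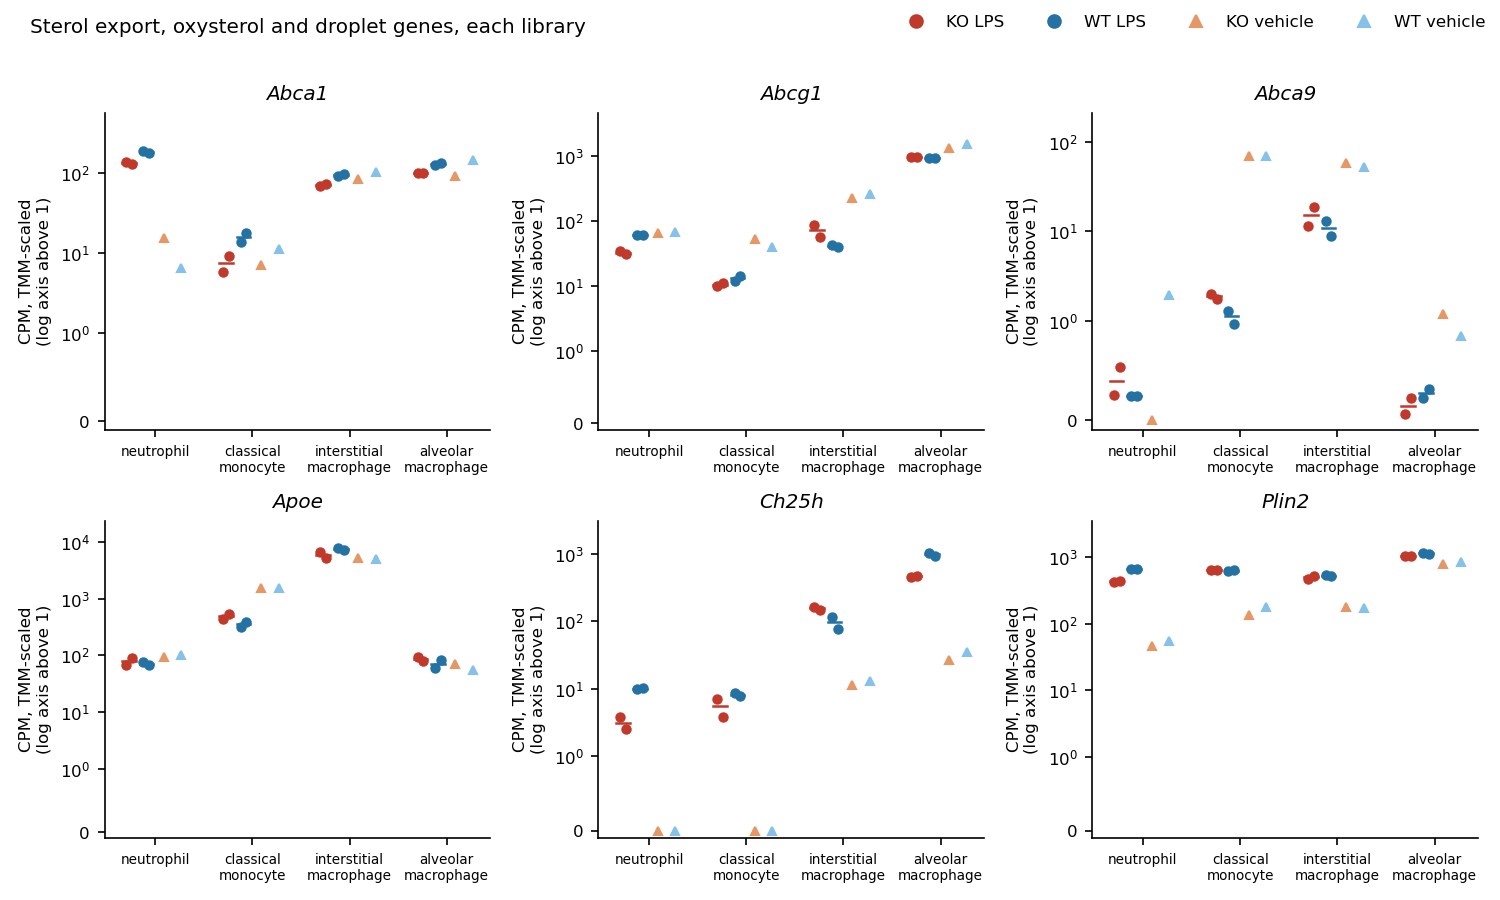
The 6 genes other than the lipases in neutrophils, classical monocytes, interstitial and alveolar macrophages; each point is 1 library in TMM-scaled CPM (log axis above 1, linear below) and short lines are means of 2 LPS libraries. Abca9 in classical monocytes is at 0.964 to 2.00 CPM in the LPS libraries and at 69.7 CPM in both vehicle libraries, while Plin2 in the same cells is at 615 to 640 CPM with LPS.

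Fewer of these genes were called different between KO LPS and WT LPS when only Xist-marked cells were used. That fit rested on 5 libraries. It also left out the cells without a mark, 43.0% and 45.1% in KO LPS and 50.9% and 53.8% in WT LPS. The parts of matched marks and of lower counts in the smaller number of calls were not tested. Outside monocytes 59 of 64 gene and class pairs passed the filter, 9 were higher and 15 lower in KO LPS, beside a background over 86422 pairs of 7.91% higher, 9.94% lower and 17.9% in either direction. With Xist-marked cells alone 56 pairs passed the filter, 5 were higher and 8 lower, beside a background of 4.33% higher, 4.74% lower and 9.07% in either direction. Of the 24 differences called with all cells, 12 kept direction and call in Xist-marked cells, 8 kept the direction without the call and 4 turned sign.

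Ch25h in alveolar macrophages depended on the cell set. With all cells the difference was −1.08 ± 0.06 (adjusted p = 6.1e-12), and with Xist-marked cells −0.05 ± 0.06 (adjusted p = 0.58). In CPM without TMM, Y-marked KO LPS alveolar macrophages had 43.6 and 29.0 CPM and Xist-marked ones 889 and 824 CPM, against 958 and 874 CPM in Xist-marked WT LPS cells, while the vehicle libraries had 28.9 CPM (KO, Xist-marked) and 35.9 CPM (WT, Y-marked). For Ch25h the Y-marked cells of KO LPS were thus far closer to the vehicle libraries than to the other LPS cells, 1 library inside the range of the vehicle libraries and the other above it. One cluster held most vehicle alveolar macrophages (1323 KO and 1621 WT cells) together with 527 and 369 KO LPS cells, 98.1% and 95.2% of whose marked cells were Y-marked, and fewer than 30 cells of either WT LPS library. Over the class 51.6% and 41.3% of marked KO LPS alveolar macrophages were Y-marked. Abcg1 followed the same line, with 1234 and 1267 CPM in Y-marked and 687 and 695 CPM in Xist-marked KO LPS cells, against 876 and 879 CPM in Xist-marked WT LPS cells. Its KO LPS against WT LPS difference was 0.03 ± 0.05 with all cells (adjusted p = 0.68) and −0.30 ± 0.05 with Xist-marked cells (adjusted p = 0.0011).

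**Figure D5:**
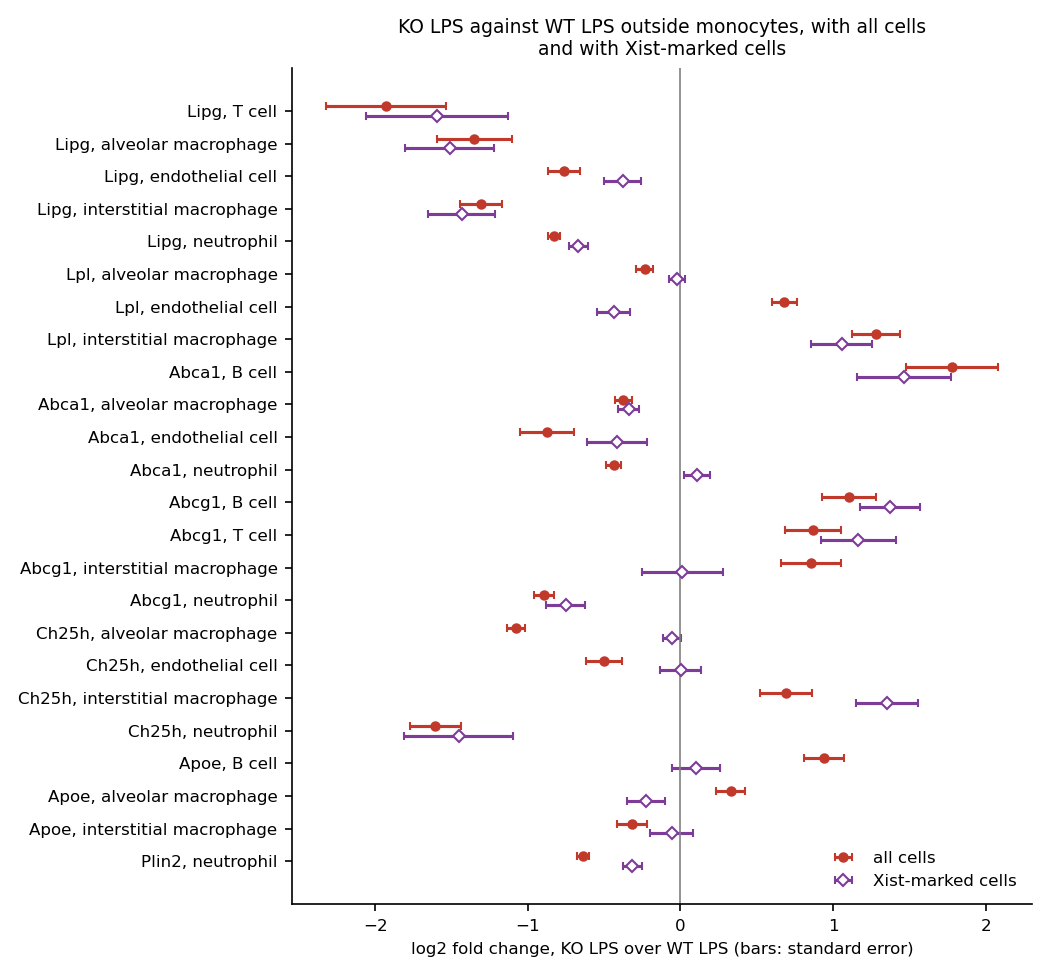
The 24 differences between KO LPS and WT LPS that passed the test with all cells outside monocytes; the x axis is log2 KO LPS over WT LPS, filled circles are all cells, open diamonds are Xist-marked cells, and bars are standard errors. Ch25h in alveolar macrophages is at −1.08 with all cells and −0.05 with Xist-marked cells, and Lpl in endothelial cells is at 0.68 and −0.44.

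In neutrophils 5 of the 8 genes were lower in KO LPS and none was higher, beside a background in that class of 16.7% lower and 12.3% higher. Besides Lipg these were Abcg1 (33.7 and 31.4 CPM in KO LPS against 61.0 and 60.6 CPM in WT LPS, −0.89 ± 0.06, adjusted p = 1.1e-07), Plin2 (−0.64 ± 0.04, adjusted p = 1.7e-08), Abca1 (−0.44 ± 0.05, adjusted p = 1.1e-05) and Ch25h (3.75 and 2.50 CPM in KO LPS against 9.83 and 10.2 CPM in WT LPS, −1.61 ± 0.17, adjusted p = 5e-06). Neither genotype's LPS libraries overlapped the other's for these genes. With Xist-marked cells Abcg1 (−0.75 ± 0.13, adjusted p = 0.0003), Plin2 (−0.32 ± 0.06, adjusted p = 0.00096) and Ch25h (−1.45 ± 0.36, adjusted p = 0.0072) were still lower, whereas Abca1 gave 0.11 ± 0.09 (adjusted p = 0.46).

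The neutrophils of both genotypes also fell into partly different clusters, whose levels are CPM without TMM. A cluster of 656 and 455 KO LPS cells held 44 and 36 WT LPS cells, and another of 621 and 509 KO LPS cells held 121 and 147 WT LPS cells. In the first, 93.6% and 94.3% of the marked KO LPS cells were Y-marked, and in the second 93.5% and 92.6%. The first had 40.0 and 26.5 CPM of Abca1 in KO LPS and 84.6 and 184 CPM in WT LPS, and 196 and 189 CPM of Plin2 in KO LPS and 360 and 446 CPM in WT LPS. In the cluster that held the most WT LPS neutrophils (926 and 616 KO LPS and 2060 and 2382 WT LPS cells), Abca1 was higher in KO LPS, at 171 and 164 CPM against 111 and 112 CPM in WT LPS. Plin2 overlapped there, at 449 and 480 CPM in KO LPS and 456 and 449 CPM in WT LPS. Lipg in it was 734 and 731 CPM in KO LPS and 1086 and 1062 CPM in WT LPS, and Abcg1 35.3 and 40.2 CPM in KO LPS and 52.9 and 58.1 CPM in WT LPS. The lower Abca1 and Plin2 of KO LPS neutrophils as a class were therefore not seen within that cluster, and the lower Lipg and Abcg1 were.

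In B cells both exporters were higher in KO LPS, and in T cells Abcg1 was. Abcg1 in B cells was 45.7 and 34.3 CPM in KO LPS against 19.9 and 17.7 CPM in WT LPS, higher by 1.11 ± 0.18 with all cells (adjusted p = 8.5e-05) and by 1.37 ± 0.20 with Xist-marked cells (adjusted p = 7e-07). In T cells it was 57.1 and 56.4 CPM in KO LPS against 34.0 and 27.8 CPM in WT LPS, higher by 0.87 ± 0.18 (adjusted p = 0.0019) and by 1.17 ± 0.25 with Xist-marked cells (adjusted p = 0.024). Abca1 in B cells was higher by 1.78 ± 0.30 (adjusted p = 0.00016) and by 1.47 ± 0.31 with Xist-marked cells (adjusted p = 0.00027). Apoe in B cells was 102 and 110 CPM in KO LPS against 47.0 and 64.5 CPM in WT LPS (0.94 ± 0.13, adjusted p = 2.3e-05), a difference of 0.10 ± 0.16 in Xist-marked cells (adjusted p = 0.68).

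In macrophages and endothelial cells several differences depended on a library or on the set of cells used. Ch25h in interstitial macrophages was higher in KO LPS by 0.69 ± 0.17 (adjusted p = 0.011) and by 1.35 ± 0.20 with Xist-marked cells (adjusted p = 0.0038), and did not pass without the second WT LPS library (0.42). Abcg1 there was higher by 0.86 ± 0.20 (adjusted p = 0.0069), did not pass without the first KO LPS library (0.48), and gave 0.01 ± 0.26 in Xist-marked cells. The part of alveolar macrophage RNA in this Abcg1 difference was not tested. Abca1 in alveolar macrophages was lower in both cell sets (−0.37 ± 0.06, adjusted p = 2.7e-05, and −0.34 ± 0.07, adjusted p = 0.0032). In endothelial cells Abca1 (−0.87 ± 0.18, adjusted p = 0.0021) and Ch25h (−0.50 ± 0.12, adjusted p = 0.0056) were lower with all cells, and gave −0.42 ± 0.20 (adjusted p = 0.29) and 0.00 ± 0.14 (adjusted p = 1) with Xist-marked cells. Apoe passed by small margins in alveolar (0.33 ± 0.09, adjusted p = 0.0099) and interstitial macrophages (−0.32 ± 0.10, adjusted p = 0.044). Apoe in alveolar macrophages did not pass without the first KO LPS library (0.20) or the first WT LPS library (0.11), nor in interstitial macrophages without the second KO LPS library (−0.15) or the first WT LPS library (−0.25).

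Classical monocytes are described without a test for the remaining 6 genes. The log2 difference between KO LPS and WT LPS was −1.14 for Abca1, −0.34 for Abcg1, 0.73 for Abca9, 0.45 for Apoe, −0.49 for Ch25h and 0.02 for Plin2. In Xist-marked cells it was −0.42 for Abca1, −0.33 for Abcg1, 0.44 for Abca9, 0.90 for Apoe, 0.83 for Ch25h and −0.08 for Plin2.

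The response to LPS itself differed between genotypes, by the interaction term, in 11 of 59 gene and class pairs outside monocytes, 7 higher and 4 lower in KO, beside a background of 2.6% higher, 3.36% lower and 5.96% in either direction. Of these, Abca1 in alveolar macrophages (0.29 ± 0.10, adjusted p = 0.048) passed in 3 of 14 alternative settings and Abcg1 in interstitial macrophages (1.05 ± 0.27, adjusted p = 0.047) in 8 of 14. Each genotype has 1 vehicle library, and those libraries have opposite sex marks. With 1 library a side the vehicle libraries were compared by counting error only. KO vehicle over WT vehicle was 0.756 for Lpl in alveolar macrophages (95% counting interval 0.745 to 0.768), 0.631 for Abca1 in alveolar macrophages (0.592 to 0.673), 0.760 for Ch25h in alveolar macrophages (0.670 to 0.861), 0.855 for Abcg1 in alveolar macrophages (0.840 to 0.871) and 0.808 for Lpl in interstitial macrophages (0.740 to 0.884). Apoe in T cells was higher in KO vehicle, with a ratio of 2.59 (2.23 to 3.03), and Abca1 in neutrophils with 2.40 (1.12 to 5.58). These intervals cover counting error and not the spread between animals.

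Other genes of the same routes are counted, without the 8 genes described so far, from lists that were put together with earlier results known. Of 18 genes of sterol synthesis and SREBP2 targets, all 18 passed the filter in classical monocytes, 13 rose with LPS and none fell, with a median of 1.59 against 0.12 over all genes and a background of 31.6% higher. Hmgcs1, which makes the precursor of mevalonate, had 132 and 122 CPM in KO LPS and 75.8 and 79.7 CPM in WT LPS, against 10.2 CPM in KO vehicle and 19.2 CPM in WT vehicle (2.83 ± 0.15, adjusted p = 1.3e-12). Idi1 (3.26) and Cyp51 (3.17) rose alike. In neutrophils 10 of 17 rose and 1 fell, and in alveolar macrophages 5 of 18 rose and 4 fell, with a median of −0.03. The backgrounds there were 30.2% higher and 20.7% lower in neutrophils, and 28.9% higher and 29.3% lower in alveolar macrophages. In B cells of KO LPS 11 of the 18 were lower than in WT LPS and none was higher, and 12 of 18 were lower in Xist-marked cells, beside a background of 16.5% lower and 13.5% higher in that class with all cells.

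Of the 13 other genes of cholesterol export and LXR targets that passed the filter in monocytes, 6 fell with LPS and 3 rose, beside 25.5% lower and 31.6% higher over all genes. Among those that fell were Arl4c (−2.57), Smpdl3a (−1.59) and the lipase activator Apoc2 (−1.06). In neutrophils 6 of 13 rose and 3 fell, beside 30.2% higher and 20.7% lower over all genes, and there Smpdl3a (1.63) and Apoc2 (2.65) rose while Arl4c fell by 2.88. In alveolar macrophages 2 of 13 rose and 5 fell, beside 28.9% higher and 29.3% lower over all genes, with Scd1, a fatty acid desaturase, at 1.62. Nr1h3, which encodes LXR alpha, was 81.1 and 81.6 CPM in KO LPS monocytes and 35.8 and 42.2 CPM in WT LPS monocytes, against 1.28 CPM in KO vehicle and 0 in WT vehicle.

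The monocyte counts that follow stand beside the same 31.6% higher and 25.5% lower over all genes. Of the 12 lipid droplet genes that passed there, 4 rose and 4 fell. Dgat2, which makes triglyceride, had 72.4 and 72.0 CPM in KO LPS and 116 and 124 CPM in WT LPS, against 10.9 CPM in KO vehicle and 4.36 CPM in WT vehicle (3.75 ± 0.18, adjusted p = 2.4e-13). Dgat2 rose in neutrophils (3.17) and alveolar macrophages (0.98) as well, and Hilpda, an inhibitor of the triglyceride lipase Pnpla2, rose in alveolar macrophages by 2.61 and in monocytes by 1.72. Of the 14 uptake genes that passed, 7 rose and 5 fell in monocytes, with the scavenger receptor Msr1 at 2.78 and the fatty acid carrier Fabp5 at 2.99, and the lipoprotein receptor Lrp1 at −1.30. In the oxysterol list 2 of 9 rose and 4 fell in monocytes, where Cyp27a1, which makes another oxysterol, was 2.59 and 3.06 CPM in KO LPS and 1.56 and 1.84 CPM in WT LPS, against 39.6 CPM in KO vehicle and 34.9 CPM in WT vehicle (−4.09 ± 0.24, adjusted p = 6.2e-12). Among lipases and their partners 2 of 11 rose and 4 fell in monocytes, and the lysosomal lipase Lipa fell by 1.94. In alveolar macrophages Pnpla2 rose by 1.59 and its activator Abhd5 by 0.58, while Lipa fell by 0.54.

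The order of levels across classes in WT LPS differed by gene. Ch25h was highest in alveolar macrophages (980.2 ± 62.3 CPM, SD, n = 2), then in endothelial cells (254 ± 37.4 CPM), with stromal cells and interstitial macrophages next and overlapping. Plin2 followed the order alveolar macrophage (1140.1 ± 28.7 CPM), neutrophil (672 ± 2.27 CPM), classical monocyte (628 ± 17.3 CPM) and interstitial macrophage (525 ± 14.7 CPM), each separate from the next. Abca1 followed neutrophil, alveolar macrophage, interstitial macrophage, stromal cell and endothelial cell without overlap. Apoe separated interstitial macrophages from stromal cells and these from classical monocytes, below which neutrophils, alveolar macrophages, endothelial cells and B cells overlapped.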

How the data were processed

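Per the labels' protocols, lung cells were enriched for CD45 by positive magnetic selection and made into 10x single-cell libraries. The authors deposited raw UMI counts per gene and barcode, and the submitters' processing notes name Cell Ranger 6.1.0, Seurat 4.1.0, R 4.1.3 and mm10 without assigning each a role. Cells with at least 200 genes and at most 10% mitochondrial UMIs were kept, 61736 of 64428 barcodes. The cells with the highest doublet scores were removed at an expected rate of 0.8% per 1000 barcodes, which left 56341. The cells were clustered (scanpy 1.11.5, leidenalg 0.10.2; 2000 variable genes, of which 1929 were used, 30 components, resolution 1.5), and clusters were named from marker genes and then gated by cell. Cells of mixed clusters (2172), of unnamed clusters (2766) or outside the gate (3037) were left out of the classes. UMIs were summed per library and class, with at least 30 cells per library. The sums were tested with edgeR 4.0.16 (TMM, quasi-likelihood, Benjamini-Hochberg threshold 0.05) on all genes of the class that passed the low-count filter, in R 4.3.3, with 2 residual degrees of freedom. These degrees of freedom come from the LPS libraries, since each vehicle group has 1 library. The filter was set by group, so counts in 1 library could be enough to pass. Replicates of a group differed by more than sampling noise (chi-square per degree of freedom 1.72 to 6.26). Bounds for groups at 0 use 3 counts over the vehicle libraries, and intervals at 95% cover counting error only. On simulated counts for classical monocytes (11816 genes) the LPS comparison recovered 47% of 2-fold and 74% of 4-fold changes, and KO LPS against WT LPS 59% and 96%. The simulated counts had the same dispersion for every gene and 100 changed genes at each fold. The data had many more called genes, so these shares are not the power in the data.

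The 8 genes and the gene lists were chosen with earlier results of these data known. All 8 genes were described in each class, and from each list up to 4 other genes with the smallest p. For the lipases, the 3 genes with the highest Pearson correlation were named among genes reaching 50 CPM. Alternatives were DESeq2 1.42.0, other scaling, filters, cell calls, marks, replicates left out and replicate blocks. Of these, the crossed block, the comparison of marks, levels within clusters and thinning were added after the data were seen.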

Additional observations from a re-analysis of the deposited data

Results flagged for a closer look

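For 11 gene and class pairs the LPS response differed between KO and WT by the interaction test (log2, KO response minus WT response, edgeR). The response was higher in KO for Lpl in interstitial macrophages (1.59 ± 0.25, adjusted p = 0.0012), for Abca1 in B cells (1.94 ± 0.37, adjusted p = 0.0018) and alveolar macrophages (0.29 ± 0.10, adjusted p = 0.048), for Abcg1 in B cells (1.27 ± 0.25, adjusted p = 0.0023), T cells (1.11 ± 0.25, adjusted p = 0.0036) and interstitial macrophages (1.05 ± 0.27, adjusted p = 0.047), and for Apoe in B cells (1.26 ± 0.19, adjusted p = 0.00035). It was lower in KO for Abca1 in neutrophils (−1.70 ± 0.40, adjusted p = 0.019), Abcg1 in neutrophils (−0.85 ± 0.17, adjusted p = 0.0079), Ch25h in alveolar macrophages (−0.68 ± 0.12, adjusted p = 0.00056) and Apoe in T cells (−1.29 ± 0.26, adjusted p = 0.0012). Abca1 in alveolar macrophages passed in 3 of 14 alternative settings, and did not pass without the second KO LPS library (0.28), the first WT LPS library (0.25) or the second WT LPS library (0.32). Abcg1 in interstitial macrophages passed in 8 of 14, and not without the first KO LPS library (0.67). Genotype is carried in these tests by 1 vehicle library a side, with opposite sex marks, and the parts of genotype and mark cannot be told apart.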

How the results depend on the processing

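Of 94 called values of the 8 genes, 58 kept direction and call under every setting they were tried under, 13 to 15 for each value. The LPS comparison had 28256 higher and 24988 lower calls over all genes, against 17768 and 40870 with plain totals, and DESeq2 gave 11947 lower. KO LPS against WT LPS had 6840 higher and 8594 lower, against 13498 and 4928 with plain totals, 1865 and 4017 with DESeq2, and 3343 and 3656 with Xist-marked cells; for the 8 genes 9 and 15 became 4 higher with DESeq2 and 5 and 8 with Xist-marked cells. The interaction had 2244 and 2904 calls, against 3972 higher with plain totals and 455 and 1336 with DESeq2, and its 7 and 4 calls among the 8 genes became 2 lower with plain totals and 2 and 2 with DESeq2. The monocyte difference of Lipg (−1.99) was −1.85 with plain totals, −1.55 with classes named cell by cell and −0.88 with Xist-marked cells. For Lpl (2.58) it was 2.07 without doublet removal, 2.38 with classes named cell by cell and 0.93 with Xist-marked cells. Signs turned for KO LPS against WT LPS with Xist-marked cells in Lpl of endothelial cells (−0.44), Abca1 of neutrophils (0.11), Ch25h of endothelial cells (0.00032) and Apoe of alveolar macrophages (−0.23). They turned for LPS in Abcg1 of endothelial cells without doublet removal (−0.18), Apoe of neutrophils without the cell gate (0.13), Apoe of interstitial macrophages with plain totals (−0.12), and, with classes named cell by cell, Apoe of NK cells (0.45), Plin2 of B cells (−0.58) and Plin2 of T cells (−0.043), and for the interaction Apoe of T cells (0.54). The cause was not tested.

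Leaving out 1 LPS library gave 4705 to 6507 higher and 6226 to 7863 lower calls for KO LPS against WT LPS (8 to 11 and 16 to 17 of the 8 genes), 26844 to 28137 and 23433 to 24772 for LPS (33 and 26 to 27), and 1943 to 2738 and 2452 to 3485 for the interaction (6 to 8 and 4 to 6). Lipg in monocytes ranged over −2.06 to −1.91 and Lpl over 2.49 to 2.66. The replicate numbers showed no pairing (correlations −0.146 to 0.0688). With the replicate block the calls of the 8 genes were 31 and 25 for LPS, 9 and 16 for KO LPS against WT LPS and 8 and 5 for the interaction, and with the crossed pairing, tried after the data were seen, 33 and 26, 10 and 19, and 6 and 4. A fit with only Y-marked cells could not be run, since WT LPS has none. Depth limits low levels, such as Ch25h in NK cells.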
